A study of Mus musculus with 2 samples.

Results

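A set of 10 genes whose proteins hepatocytes secrete into blood was examined for CpG methylation in mouse liver (strain CD-1, age 12 weeks). The genes were Alb, Afp, Ttr, Trf, Fga, Fgb, Fgg, Serpinc1, Ambp and Apoa1. The 2 libraries were a control and a fasted one, the latter from mice killed after 12 hr without food. All mice were housed on standard chow, and when the control mice had last eaten is not given in the sources used here. A group had 1 library, and the labels did not say how many mice it held, so values carry no replicate spread. Tests on reads therefore compare these libraries and not the conditions. Where 2 values stand side by side, the control library comes first and the fasted library second. Methylation was read by reduced representation bisulfite sequencing, which covers cytosines in fragments cut at restriction sites. The level is the share of reads in which a cytosine was methylated, and differences are in percentage points, fasted minus control. The set comprises every CpG cytosine read 5 or more times in each library inside the mm10 RefSeq span of each gene plus 5000 bp on each side. These numbered 373 in 257 CpGs, of 2466496 such cytosines on the autosomes, and no cytosine fell in the windows of 2 of these genes. A further share was read too thinly, since 596 cytosines of these windows were listed in either library.

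Albumin, transferrin, transthyretin, fibrinogen, antithrombin and apolipoprotein A-I are among the most abundant products of the adult hepatocyte. Afp encodes alpha-fetoprotein, the fetal relative of albumin, which lies next to Alb and is silenced in the liver after birth. Genes of this kind mostly have promoters poor in CpGs, and methylation near such starts is known to vary with cell type. RNA was not measured in these libraries, so the expression states are background and not a result. A methylation level between 0 and 100% cannot tell a mixture of cells from a mixture of alleles, and liver tissue holds cells other than hepatocytes.

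The promoters show how few CpGs these genes offer to the assay. The RefSeq promoter table (GRCm38.p6) held 8 of the 10 genes, with 3 to 5 CpGs in the 300 bases around each start, against a median of 10 over 9841 protein-coding genes. Counts of 5 or fewer were found in 39.3% of those genes. Over the whole windows the set was less uniform. Measured cytosines per 10 kb numbered 5.47 at Ttr, 5.83 at Alb and 6.76 at Apoa1, below the protein-coding median of 22.5, but 24.2 at Fgg, 25.8 at Fga and 34.7 at Trf, above it. Afp had 14.2, more than Alb. The 250 bases before the start are shown for Alb and Afp, the pair to be compared, and for Fgb and Ambp, the 2 genes with measured cytosines in this stretch. CpGs are in capitals, each sequence runs 5′ to 3′ on the gene's strand, and distances count from the annotated start.
Alb, chr5:90460620-90460869, plus strand: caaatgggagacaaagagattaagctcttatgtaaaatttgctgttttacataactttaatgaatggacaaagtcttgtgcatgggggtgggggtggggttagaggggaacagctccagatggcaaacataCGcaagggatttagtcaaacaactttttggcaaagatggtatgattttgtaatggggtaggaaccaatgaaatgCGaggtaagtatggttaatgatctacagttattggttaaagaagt
Afp, chr5:90490464-90490713, plus strand: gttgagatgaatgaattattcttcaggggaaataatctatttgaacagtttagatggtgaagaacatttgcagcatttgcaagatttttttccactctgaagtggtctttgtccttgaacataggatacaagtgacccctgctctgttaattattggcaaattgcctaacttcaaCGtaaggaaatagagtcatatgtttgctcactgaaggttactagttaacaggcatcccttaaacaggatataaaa
Fgb, chr3:83049864-83050113, minus strand: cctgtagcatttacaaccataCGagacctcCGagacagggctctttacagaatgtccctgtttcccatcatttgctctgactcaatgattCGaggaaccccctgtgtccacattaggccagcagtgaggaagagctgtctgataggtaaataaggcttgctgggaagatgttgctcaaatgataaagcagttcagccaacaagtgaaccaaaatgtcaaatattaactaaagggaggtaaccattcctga
Ambp, chr4:63154173-63154422, minus strand: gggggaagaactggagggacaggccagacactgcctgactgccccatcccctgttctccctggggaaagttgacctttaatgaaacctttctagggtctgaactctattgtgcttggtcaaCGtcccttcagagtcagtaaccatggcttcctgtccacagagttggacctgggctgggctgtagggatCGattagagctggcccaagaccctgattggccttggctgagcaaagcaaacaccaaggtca
Alb has 2 CpGs in this stretch and Afp 1, and none of them was measured. In Fgb the CpG at -160 was measured on both strands, at 6.67% of 15 and 9.52% of 21 reads on the plus strand, and at 12.5% of 24 and 14.3% of 14 on the minus strand. In Ambp the CpG at -61 was measured on the minus strand, at 11.8% of 17 and 35.3% of 17 reads.

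The letters of 4 promoter motifs were searched on both strands of the 300 bases. The C/EBP pattern TTGCNNAA, named for a family of transcription factors prominent in hepatocytes, was found in 5 of 8 promoters (Alb, Afp, Fga, Fgb and Serpinc1) and in 10.8% of all 32851 promoters of the table. In Alb it begins at -94 (tttggcaa, the reverse strand) and in Afp at -89 (ttgcctaa). TATAAA was found in Afp alone of the 8, beginning at -7, and in 13.6% of all promoters. The HNF4 pattern CAAAGTCCA and the pattern of HNF1 were found in 0 of 8, and in 0.475% and 0.00913% of all promoters. The HNF1 pattern matched only 3 of the 32851 promoters. With matches this rare, 0 of 8 cannot show that these promoters lack HNF4 or HNF1 sites. Sites that differ from the patterns by some letters were not searched. The shares are over all promoters of the table, and shares over promoters with as few CpGs as these 8 were not taken. The letters of C/EBP and TATAAA do not overlap in Afp.

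Methylation over the whole windows ran from 20.4% to 63.1% in the control library, and Afp stood in the middle of the set. In the control library the mean over cytosines was 63.1% at Alb, 62.3% at Ttr, 54.7% at Serpinc1, 49.7% at Ambp, 47.5% at Afp, 29.8% at Fgb, 28.5% at Trf, 26.6% at Fgg, 22.1% at Fga and 20.4% at Apoa1. In the fasted library these genes stood at 67.2%, 61.6%, 49.9%, 53.9%, 44.1%, 20.8%, 32.3%, 25.2%, 23.7% and 20.8% in the same order. Afp was thus exceeded by 4 of the other 9 genes in each library. The other 9 averaged 39.7% and 39.5%, with an SD over genes of 17.5 and 18.6 points, so Afp lay within 1 SD of them. From summed reads the level of Afp was 39.2% (exact 95% interval 35.5 to 43.0) against 38.9% (35.0 to 42.8). These intervals leave out all but counting error. They understate that too, because a molecule is counted at each cytosine it covers. Among all 18382 measured protein-coding windows, with a median of 36.0% in the control library, Afp lay at percentile 62.5, Alb at 75.6 and Apoa1 at 28.4.

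These order the genes only as the assay sampled them, because the covered CpGs sit at different places in each gene. Inside the gene spans alone, without flanks, Afp stood at 54.3% and 50.2%, and of 8 other genes measured it was exceeded clearly by Ambp alone, at 57.1% and 60.4%. Serpinc1 was level with it in the control library, at 54.3%, and stood at 49.1% in the fasted library. Alb there stood at 35.1% and 39.2%. With at least 10 reads required, Afp stood at 31.5% and 26.2% over 24 cytosines, and Alb, left with 5 cytosines, at 92.0% and 89.2%. Afp was then exceeded by 5 and 6 of the other 9.

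**Figure D1:**
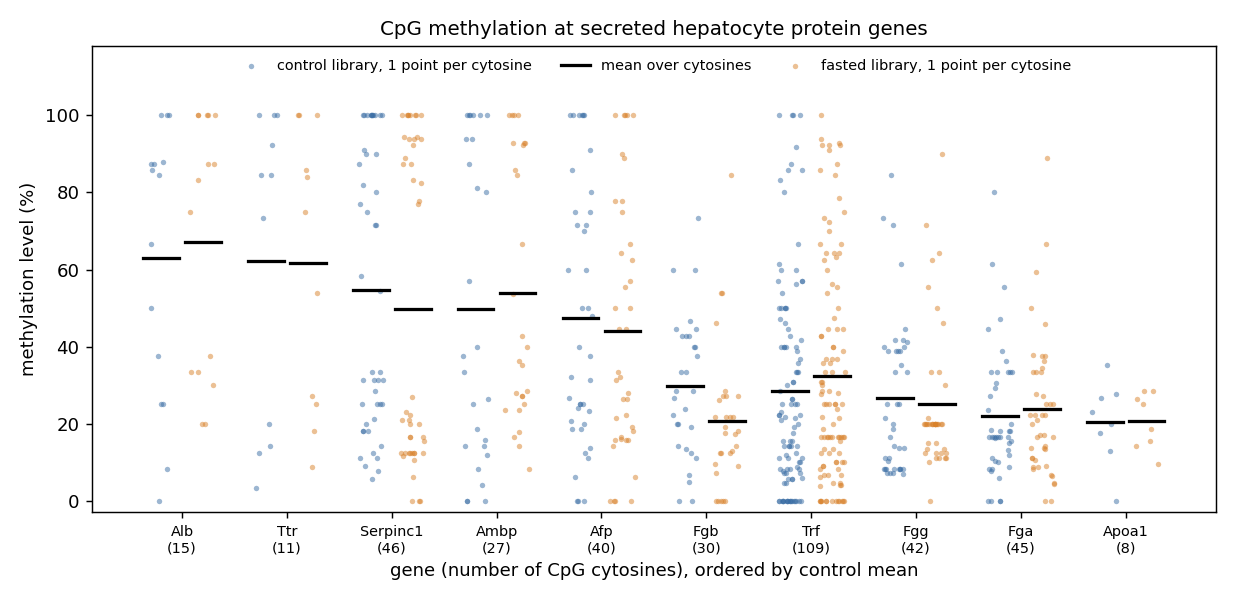
Methylation level (%, y axis) of each CpG cytosine at the 10 genes (x axis, ordered by the control mean), with control points in blue, fasted points in orange and black bars at the mean over cytosines. Afp, with means of 47.5% and 44.1%, lies between the genes at the left and those at the right.

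Cytosines at low but not absent methylation made up a large share of the set, Afp included, although the share at Alb and Ttr depended on the coverage minimum. Of the 373 cytosines, 44.2% and 52.3% lay at 10 to 40% methylation, a class chosen after seeing the data. Over all autosomal cytosines the shares were 7.56% and 7.36%. Cytosines below 10% made up 20.1% here against 41.5% of all in the control library, and those of at least 75% made up 18% against 38.9%. Median depth was alike, at 13 and 15 reads here against 14 and 15 over all cytosines. At a minimum of 10 reads the shares at 10 to 40% were 48.7% and 57.2% here, and 7.46% and 7.24% over all.

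By gene, the share at 10 to 40% in the control library was 87.5% at Apoa1, 68.9% at Fga, 50% at Fgb, 47.6% at Fgg, 43.5% at Serpinc1, 40% at Afp, 37.6% at Trf, 33.3% at Ambp, 27.3% at Ttr and 20% at Alb. The median over all 18382 protein-coding windows was 4.57%, and the 10 genes lay between percentile 92.0 (Alb) and 99.96 (Apoa1) of those windows. Afp lay at percentile 98.8 in both libraries. At Fgg the share was 81.0% in the fasted library. Several neighbouring plus-strand cytosines of Fgg went from 8.33% of 12 to 20% of 15 reads, across the 10% cut. With at least 10 reads, the share at Alb was 0% in both libraries over 5 cytosines (percentile 26.6 in the control library, among 17585 windows). At Ttr it was then 14.3% and 28.6% over 7 cytosines (percentile 84.4 in the control library). At Afp it was 66.7% and 62.5% over 24, and the other 7 genes lay between percentile 97.99 (Fgg) and 99.903 (Apoa1) in the control library. The median protein-coding window held 97 cytosines, more than 9 of the 10 genes, and the part of this in the percentiles was not tested. Because the class was chosen after seeing these cytosines, the percentiles are a description only. Windows of genes with few promoter CpGs were not compared apart for this share. The other plasma protein genes described further on had a median share of 20% in both libraries over 55 genes.

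**Figure D2:**
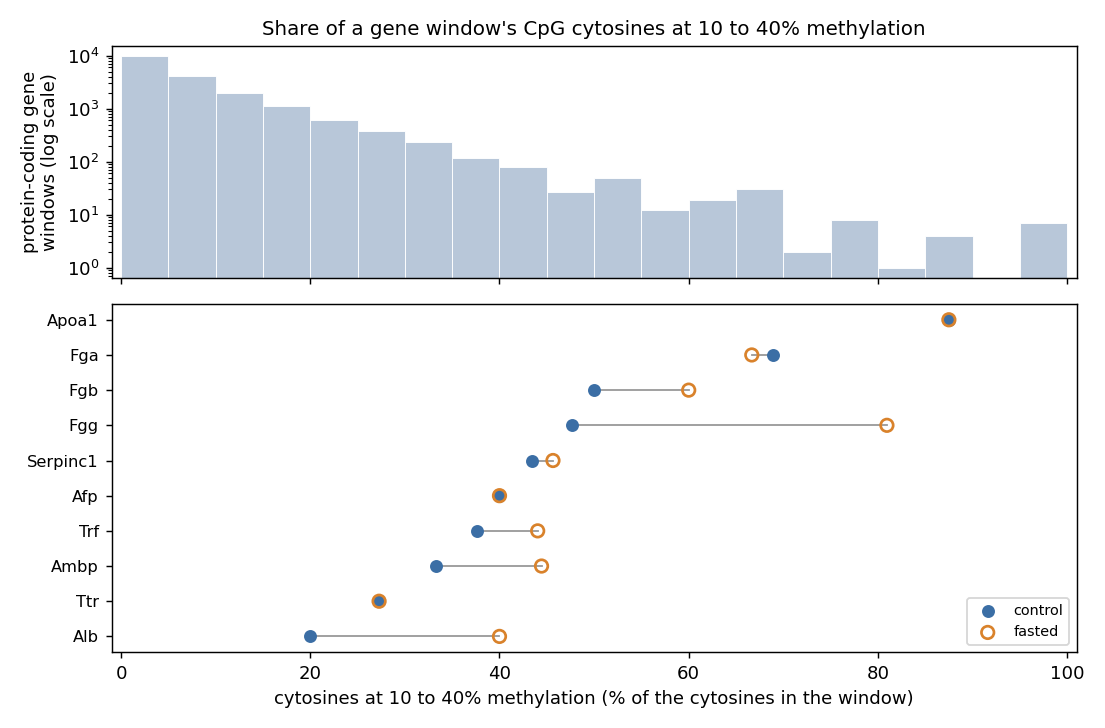
Upper panel: number of protein-coding gene windows (log scale) by the share of their cytosines at 10 to 40% methylation in the control library. Lower panel: that share in each of the 10 genes, control filled and fasted open, on the same axis in percent; the genes run from 20% (Alb) to 87.5% (Apoa1) in the control library, where the median window stood at 4.57%.

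Albumin, the main carrier and osmotic protein of plasma, was measured at 15 cytosines in the window around its gene (chromosome 5, 90460870 to 90476602, plus strand). The flank before the start was highly methylated. Its 8 cytosines averaged 87.5% and 91.7%, and a group of 6 lying 4476 to 4534 bp before the start stood at 91.3% and 91.0%. A group of 6 cytosines 4499 to 4819 bp inside the gene was much lower, at 24.3% and 29.0%, ranging from 0 to 50% and from 20 to 37.5%. A single cytosine 12635 bp after the start was methylated in 10 of 10 and 17 of 17 reads. Albumin DNA was therefore low at 1 internal group and high at the other places read, in both libraries. The cytosine of at least 10 reads with the largest difference lay 4499 bp before the start, at 84.6% of 26 and 75% of 16 reads.

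Alpha-fetoprotein was measured at 40 cytosines (chromosome 5, 90490714 to 90508907, plus strand), and like Alb it held low and high groups. The 8 cytosines 4713 to 4970 bp before the start stood at 20.3% and 19.6%, where the corresponding flank of Alb was methylated. A group of 12 at 1805 to 2246 bp after the start stood at 21.4% and 15.0%. The control value lay within the range of the low group of Alb and the fasted value below it. In the far part of the gene, 11 cytosines at 14166 to 14342 bp stood at 70.9% and 67.0%, and 4 at 14784 to 14954 bp at 89.2% and 97.5%. Nearest the start, 5 cytosines at 338 to 390 bp averaged 68.6% and 60%, with single values from 0 to 100% and from 22.2 to 100%. These 5 had 6 to 14 and 9 to 18 reads each.

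One of them was the single called cytosine of the whole set, a call needing an adjusted p under 0.05 and 25 points. The plus-strand cytosine 354 bp after the Afp start (chromosome 5, position 90491068) was methylated in 0 of 6 control reads and in 16 of 16 fasted reads. The difference of 100 points passed Fisher's exact test (two-sided, adjusted p = 0.0268 over all autosomal cytosines). The call is 1 of 373 cytosines, and over all autosomal cytosines 0.0548% were called. The minus-strand cytosine of the same CpG pointed the other way, at 71.4% of 14 and 44.4% of 18 reads, which was also the largest difference in Afp at 10 or more reads. Within each library the strands of this CpG differed, with p = 0.0108 in the control and p = 0.000395 in the fasted library (Fisher's exact test, unadjusted). Summed over strands the CpG stood at 50% of 20 and 70.6% of 34 reads and was not called, and at a minimum of 10 reads the plus-strand cytosine drops out for its 6 control reads. In the same group, the minus-strand cytosine 338 bp after the start went from 7 of 7 to 2 of 9 methylated reads. It was not called (unadjusted p = 0.00323, Fisher's exact test). Of the 5 cytosines of the group, 1 was higher and 4 lower in the fasted library.

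**Figure D3:**
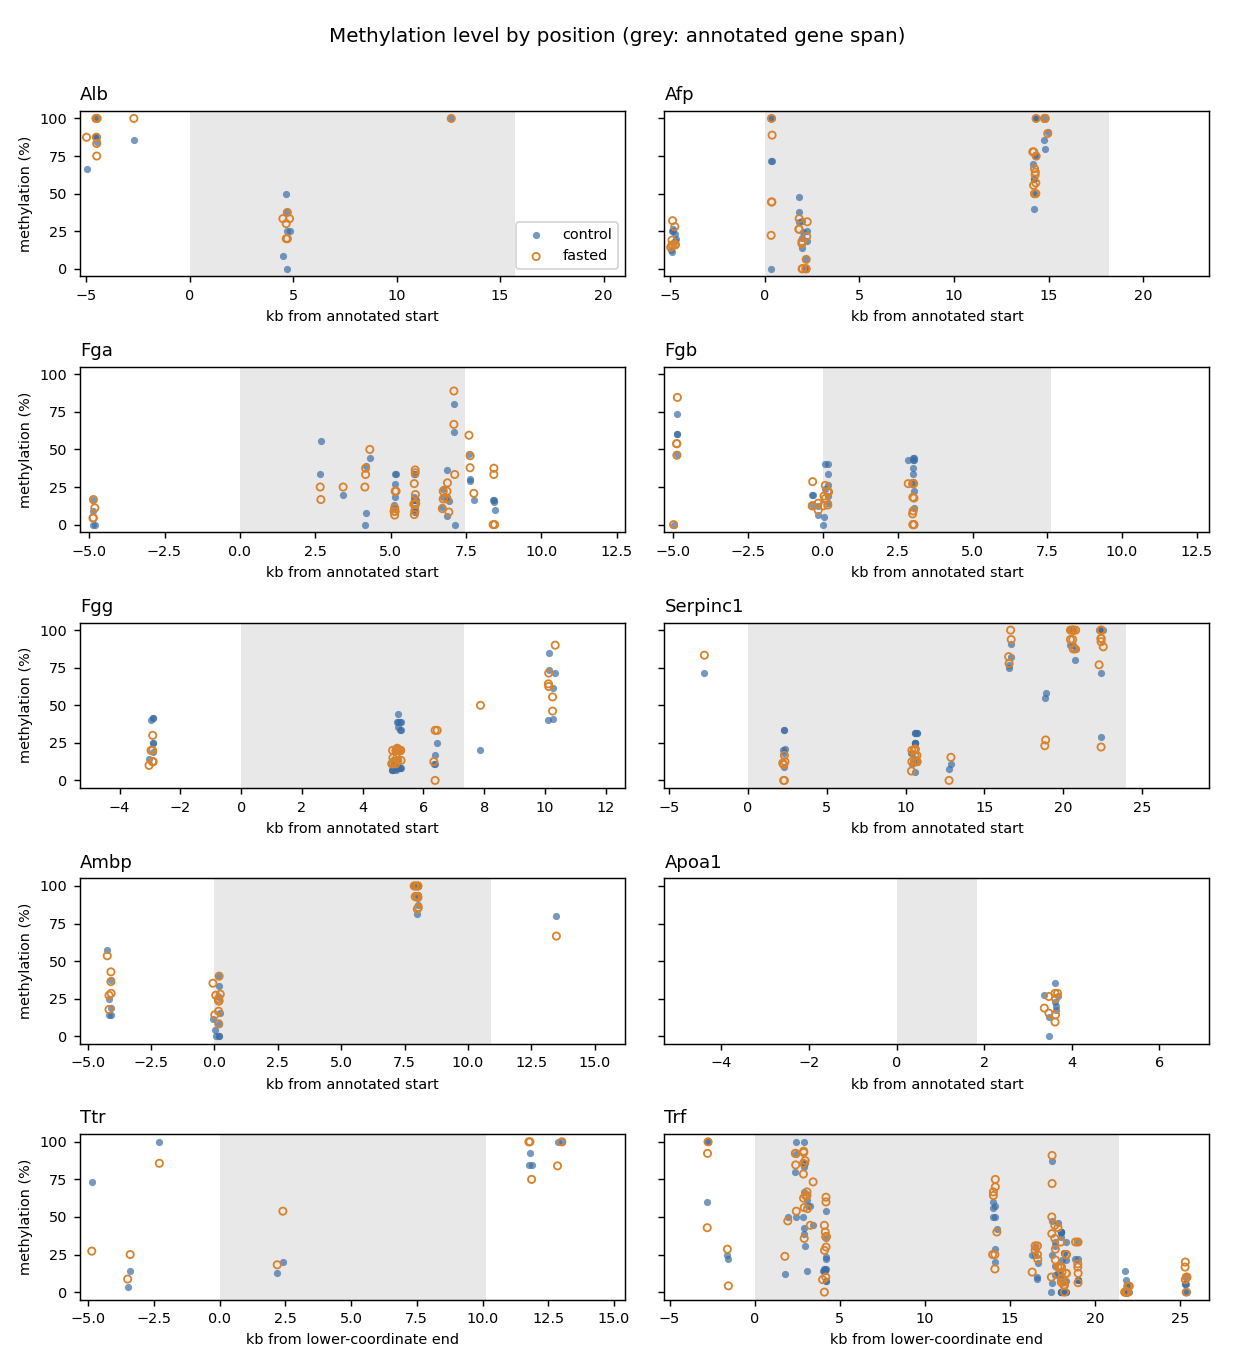
Methylation level (%) of each cytosine against its distance in kb from the annotated start, or from the lower-coordinate end for Ttr and Trf, whose strand was not in the table; control filled blue, fasted open orange, gene span in grey. Low groups at 24.3% (Alb) and 21.4% (Afp) of control methylation lie more than 1000 and up to 5000 bp past the start, and the groups of Afp and Ambp further into the gene are high. Serpinc1 has low groups up to 12871 bp and mostly high ones from 16531 bp on.

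Low levels recurred in 1 stretch of several genes, a stretch chosen after seeing the data, and were not confined to it. More than 1000 and up to 5000 bp after the start, 6 genes were measured: Alb, Afp, Fga, Fgb, Fgg and Serpinc1. Their control levels ran from 9.11% (Fgg) to 34.4% (Fgb), and their fasted levels from 8.54% (Serpinc1) to 30.4% (Fga). The medians over protein-coding genes with at least 3 cytosines there were 67.0% in the control library for all 3868 genes, and 70.8% for the 741 with no more than 5 promoter CpGs. Against those 741, Afp lay at percentile 23.1, Alb at 24.4 and the other 4 between 15.4 and 28.3. Of those 741 genes, 24.7% stood below 25% there, so such a level is common among genes with few promoter CpGs. The value of Fgg rests on 5 cytosines that the 5000 bp limit cut from a group of 24. That whole group stood at 19.0% and 17.6%. Beyond 10000 bp, Afp stood at 75.8% over 15 cytosines and Serpinc1 at 59.2% over 39, where the median over the comparable 756 genes was 79.4%.

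The other 2 carriers were measured without a known start. Transthyretin, the carrier of thyroid hormone and of retinol-binding protein, had 11 cytosines (chromosome 18, 20664209 to 20674326). Inside the gene 2 cytosines stood at 12.5% of 16 against 18.2% of 11 reads, and at 20% of 5 against 53.8% of 13 reads. The 5 cytosines of the flank above the gene averaged 92.3% and 91.8%, and 2 in the flank below it, 3398 and 3494 bp away, 8.76% and 16.8%. At 10 or more reads the largest difference lay 4859 bp below the gene, with 73.3% of 15 and 27.3% of 11 reads, and did not pass (adjusted p = 1, Fisher's exact test). Low and high groups thus alternated over a few kb at Ttr as well.

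Transferrin, the iron carrier of plasma, had 109 cytosines (chromosome 9, 103208876 to 103230286), the most in the set. Its lowest group lay just outside the upper-coordinate end, where 12 cytosines between 326 and 599 bp from the gene stood at 2.64% and 0.654%. A further 6 near the edge of the window stood at 4.44% and 10.8%. Groups inside the gene next to that end were at 17.1 to 21.1% and 20.1 to 24.9%, over 46 cytosines. Towards the lower-coordinate end the levels were mixed. The high groups there held 4 cytosines at 80.4% and 80.8%, 14 at 58.5% and 68.7%, and 3 outside the gene at 86.7% and 78.4%. Low groups lay among them. A group of 12 inside the gene stood at 19.9% and 32.9%, with 10 of 12 cytosines higher in the fasted library. A pair 1775 and 1946 bp inside the gene stood at 30.9% and 35.6%, and a pair in the lower flank at 23.4% and 16.4%. The largest single difference at 10 or more reads in both libraries, 30.8% of 13 against 64.3% of 14 reads, did not pass (adjusted p = 1, Fisher's exact test).

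The 3 fibrinogen chains, which together form the clotting protein cleaved by thrombin, lie side by side on chromosome 3. Fga (83026153 to 83033627, plus strand) had 45 cytosines, and its groups of 2 or more cytosines lay between 6.26% and 44.4% in the control and between 9.17% and 41.0% in the fasted library. The lowest was the group of 4 at 4812 to 4875 bp before the start. The largest single difference at 10 or more reads was 7.69% of 13 against 33.3% of 24 reads, 4169 bp after the start. No group of Fga was thus above 44.4%, although single cytosines reached 80% and 88.9%.

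Fgg (83007724 to 83015056, plus strand) had 42 cytosines. A dense group of 24, at 4955 to 5263 bp, stood at 19.0% and 17.6%, and 4 cytosines at 6340 to 6452 bp stood at 16% and 19.8%. Beyond the gene, 6 cytosines 10112 to 10335 bp from the start were at 62.0% and 65.0%. The 7 cytosines 2899 to 3032 bp before the start stood at 29.5% and 16.8%, and each of the 7 was lower in the fasted library. The largest single difference at 10 or more reads was 44.4% of 18 against 20% of 15 reads.

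Fgb (83042246 to 83049863, minus strand) had 30 cytosines and the widest difference of the set. A group of 14 from 361 bp before to 182 bp after the start stood at 19.6% and 18%. The 11 cytosines 2851 to 3043 bp after the start stood at 34.4% and 12.2%, with 10 of the 11 lower in the fasted library. On the plus strand there, 5 cytosines with 8 or 9 and 13 or 14 reads held 22.2 to 44.4% and 0 to 7.14%. On the minus strand 6 cytosines held 11.1 to 42.9% and 9.09 to 27.3%. Neighbouring cytosines are read on the same molecules, so these are not 11 independent readings. The same holds for the counts of higher and lower cytosines given for groups of Fgg, Trf and Ambp. The 5 cytosines near the edge of the window before the start stood at 48% and 47.7%. Among cytosines with 10 or more reads the difference was largest 79 bp after the start, at 40% of 15 and 17.4% of 23 reads.

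Antithrombin, the serpin that inhibits thrombin and factor Xa, is encoded by Serpinc1 (chromosome 1, 160978583 to 161002543, plus strand), which had 46 cytosines. Levels were low over the first part of the gene and mostly high over the rest. The 6 cytosines 2202 to 2342 bp after the start stood at 22.5% and 8.54%, 14 at 10368 to 10723 bp at 21.8% and 14.9%, and 2 at 12753 and 12871 bp at 9.40% and 7.69%. From 16531 bp on, 4 cytosines stood at 81.2% and 88.5%, 9 at 94.2% and 95.8%, and 8 at 87.5% and 83.7%. Between them, 2 cytosines at 18826 and 18882 bp stood at 56.4% and 25%. At 10 or more reads the largest single difference, 33.3% of 12 against 0% of 21 reads, lay 2305 bp after the start and did not pass (adjusted p = 1, Fisher's exact test).

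Ambp encodes the precursor of alpha-1-microglobulin and of bikunin, a protease inhibitor (chromosome 4, 63143275 to 63154172, minus strand), and had 27 cytosines. The 10 cytosines from 61 bp before to 229 bp after the start stood at 14.0% and 24.2%, with 8 of 10 higher in the latter. A group of 10 at 7878 to 8044 bp after the start stood at 95.6% and 94.1%. Ambp was thus low around its start and methylated in the body. The 6 cytosines 4078 to 4231 bp before the start stood at 27.8% and 34.4% and lay inside the neighbouring gene Kif12. At 10 or more reads the largest single difference, 40% of 15 against 8.33% of 12 reads at 167 bp, ran against its group.

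Apoa1 encodes the main protein of high-density lipoprotein (chromosome 9, 46228630 to 46230469, plus strand). No cytosine inside the gene or before it was listed, and all 8 lay 3373 to 3675 bp from the start, beyond the far end and between Apoa1 and Apoc3. They stood at 20.4% and 20.8%, with single values of 0 to 35.3% and 9.52 to 28.6%. The same 8 cytosines were the only ones in the window of Apoc3. The largest difference at 10 or more reads was 0% of 17 against 15.4% of 13 reads.

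Between the libraries, 0 of the 10 genes were called. A call needed 10 points or more and an adjusted p under 0.05 (Fisher's exact test, reads summed over the window), which 1.33% of 37809 gene windows met. At 5 points or more 0 were called as well, against 2.68% of windows. The fasted library was higher at 5 genes, by 4.20 points at Ambp, 4.11 at Alb, 3.79 at Trf, 1.64 at Fga and 0.381 at Apoa1. The other 5 differed by -8.95 points at Fgb, -4.80 at Serpinc1, -3.40 at Afp, -1.42 at Fgg and -0.652 at Ttr. Of the cytosines, 172 were higher, 174 lower and 27 equal. The median difference of the 10 genes was -0.135 points, against 0.0304 points over all windows, and the median size of the difference was 3.59 points against 1.49. The 10 windows held a median of 35 cytosines, against 97 over protein-coding windows alone. Per 10 kb their median was 13.9 cytosines, against 15.0 over all windows. The part of this in the wider differences was not tested.

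Trf was the 1 gene with an adjusted p under 0.05 (adjusted p = 0.0350, Fisher's exact test), as were 13.2% of all windows, with a difference short of 10 points. Its summed level was 27.7% (25.4 to 30.1) against 32.6% (30.3 to 34.9), and 58 of its 109 cytosines were higher and 42 lower. Because molecules are counted at several cytosines, the adjusted p of Trf is too small and these intervals are too narrow. At Fgb, with the largest difference, the summed level was 28.1% (23.7 to 32.9) and 20.7% (17.1 to 24.7), and the adjusted p was 0.0794 in Fisher's exact test. Within the gene span alone Fgb differed by -13.6 points and was called (adjusted p = 0.0385, Fisher's exact test), as were 1.57% of 28240 spans. On the plus strand alone, a setting chosen after seeing the data, Fgb differed by -17.5 points (adjusted p = 0.0138, Fisher's exact test). On the minus strand alone Fgb was also lower but was not called. With at least 10 reads it differed by -1.31 points over 16 cytosines, and with at least 20 reads by 6.68 points over 4. Afp had an adjusted p of 1, and Alb one of 0.707 (Fisher's exact test). Over the other settings the difference ran from -13.5 to 3.32 points at Afp and from -2.86 to 6.67 points at Alb. Of single cytosines 12 of 373 (3.22%) had an unadjusted p under 0.05 in Fisher's exact test, as did 1.85% of all autosomal cytosines.

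The 2 strands of a CpG give a measure of scatter within a library. Over 116 CpGs read on both strands, the strands differed by a median of 12.4 and 7.60 points. The libraries differed by a median of 9.37 points on the plus and 13 points on the minus strand of the same CpGs. The difference between libraries was thus of the size of the difference between strands. At cytosines with at least 30 reads, methylated and total counts were both even at 13 of 21 and at 16 of 26, and the part of this in the levels was not tested.

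**Figure D4:**
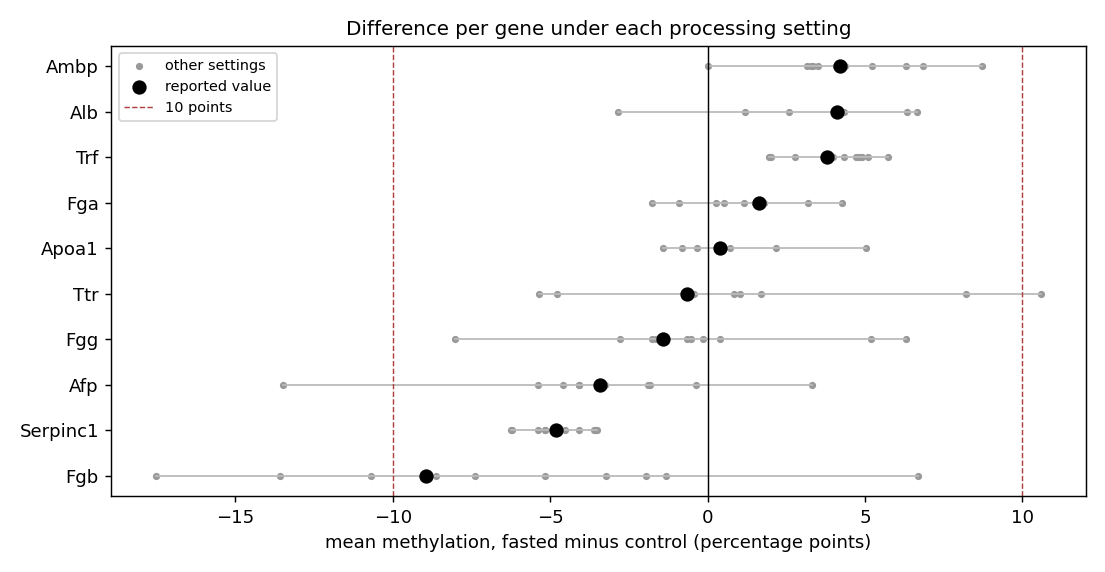
Mean methylation of each gene in the fasted minus the control library, in percentage points, with the reported value in black and the value under each other processing setting in grey; dashed lines mark 10 points. The reported values run from -8.95 (Fgb) to 4.20 points (Ambp), and 7 of the 10 genes cross 0 under some setting.

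A longer list of plasma protein genes was described in the same way. Of 59 listed genes of secreted liver proteins, 57 were found on the autosomes and 55 had at least 3 cytosines. Their median level was 56.0% in both libraries and their median difference 0.228 points, with 28 higher and 27 lower. Of the 55, 1 was called lower and 0 higher, where 1.33% of all 37809 windows were called. Serpinf2, which encodes the plasmin inhibitor alpha-2-antiplasmin, was lower, at 56.0% and 45.1% over 57 cytosines (adjusted p = 0.0198, Fisher's exact test), a call lost in 8 other settings, among them the gene span alone, read weighting and halved reads. Cp, the copper protein ceruloplasmin, stood at 67.5% and 51.5% over 7 cytosines without passing (adjusted p = 0.204), and Serpina1b, an alpha-1-antitrypsin gene of a multigene family whose reads may be split between copies, at 66.2% and 57.1% over 12 (adjusted p = 0.0155, Fisher's exact test, short of 10 points).

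Around the 10 genes, 11 others shared cytosines with them, and 0 of these were called, where 1.33% of all windows were. Levels given for them are over their own windows. Plrg1 shared 5 cytosines with Fgb and stood at 14.8% and 13.5%, Kif12 shared 16 with Ambp and stood at 58.3% and 62.6%, and Zbtb37 shared 17 with Serpinc1 and stood at 26.5% and 26.8%. The long noncoding RNA genes Gm30097, Gm16090 and Gm40075 shared 31 cytosines with Fgg, 6 with Ttr and 18 with Fga. They stood at 34.8% and 33.4%, at 41.1% and 38.1%, and at 25.2% and 30.5%. The small nucleolar RNA gene LOC115487665 lies inside Serpinc1, and its window held 7 of the same cytosines, at 29.5% and 19.2%. That difference of -10.3 points did not pass (adjusted p = 0.227, Fisher's exact test). Gm16090 and Zbtb37 had an adjusted p of 0.00772 and 0.0369 (Fisher's exact test), at -2.94 and 0.260 points. Of all windows, 13.2% had an adjusted p under 0.05. Rc3h1, Zfp618 and Srprb shared 1, 1 and 3 cytosines with Serpinc1, Ambp and Trf, and Apoc3 shared the 8 of Apoa1.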

How the data were processed

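Genomic DNA from liver was cut with TaqαI and MspI, bisulfite converted and sequenced, per the labels' protocols, with 1 control and 1 fasted library grouped by title. Bismark 0.14.3 (bisulfite alignment), bcl2fastq 1.8.4 and mm10 are named in the submitters' processing notes. How reads were trimmed, deduplicated or filtered is not given in the sources used here. Both deposited tables hold, for each listed CpG cytosine on either strand, the methylated and total reads, beside a score that the authors scaled to 1000 for full methylation. Levels were computed here from those read counts, so no normalization enters.

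On the 19 autosomes, cytosines read 5 or more times in each library were kept, strands apart. The files list 4111027 and 4110421 cytosines, at a median of 8 and 9 reads, and 67.0% and 69.8% of them reach 5 reads. A gene window is the RefSeq span of GRCm38.p6 plus 5000 bp on each side, and its level is the mean over cytosines. For the 37809 windows of 3 or more cytosines, reads were summed and the libraries compared (Fisher's exact test, two-sided, p-values adjusted after Benjamini and Hochberg). A call is an adjusted p below 0.05 with 10 points or more. Single cytosines (2466496) were tested alike and called at 25 points. With 1 library a group, these tests compare 2 libraries and not the conditions. Reads may repeat molecules, so intervals (exact Clopper-Pearson, 95%) and p-values cover counting error only and understate the error. In summed reads a molecule is also counted at each cytosine it covers, so intervals and p-values of windows understate counting error as well.

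A gene's strand and start came from the RefSeq promoter table, which held 8 of the 10 genes. All 258554 cytosines that fell in a promoter of that table lay at a CpG (100%). Exons and introns were not analysed here. Genes and cytosines are named by these rules: all 10 genes, genes sharing cytosines with them, called genes of the list of other plasma proteins and the 3 with the largest difference, called cytosines, and in each gene the cytosine with the largest difference at 10 or more reads in both libraries. The genes, lists and tests were chosen with earlier results of these data known. The class of 10 to 40% methylation, the distance bins and the strand-wise values were chosen after seeing the data. Alternatives covered coverage, flanks, weighting, strands, halved reads and thresholds. Scripts were tested on simulated data. Analyses used Python 3.11.15, numpy 2.4.6, pandas 2.3.3, scipy 1.17.1 and numba 0.67.0.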

Additional observations from a re-analysis of the deposited data

How the results depend on the processing

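Coverage, flanks and weighting moved the levels. The mean of the gene levels, 40.5% (control) and 40% (fasted), was 17.8% and 20.6% with at least 20 reads, where 9 genes were left and Ttr had 1 cytosine, 35.6% and 36.6% without flanks, 37.4% and 38% with flanks of 2000 bp, 45.8% and 46.2% with 10000 bp, 36.8% and 38.1% with read weighting, 37.9% and 36.3% on the plus strand, 43.1% and 42.8% on the minus strand, and 41.5% in the fasted library with merged strands. The number of genes above Afp, 4 in each library, was 1 and 2 with at least 20 reads, 2 and 1 without flanks, 1 in the control library on the minus strand and 2 in the fasted library with flanks of 2000 bp. The share of cytosines at 10 to 40% was 69.5% and 62.7% with at least 20 reads.

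One gene, Fgb, was called without flanks and on the plus strand alone, with counts of 1 and 1, and 0 in the other settings. Without flanks 8 of the genes were tested, and 1.57% of all 28240 spans were called. The called Afp cytosine was lost with at least 10 reads, at least 20 reads, merged strands and halved reads, which left 0 calls. Of the other plasma protein genes, 2 were called with flanks of 2000 bp, with other genes left out and at 5 points, and 0 with flanks of 10000 bp, at least 20 reads, halved reads, reads divided by cytosine number and at 20 points. Over all windows the called share was 1.33%, and 2.46% with read weighting, 2.68% at 5 points, 0.325% at 20 points, 0.415% with halved reads and 0% with reads divided by cytosine number.

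Serpinc1, Trf and Ambp kept their direction in 17 of 17 other settings, at -6.23 to -3.51, 1.94 to 5.74 and 0.0129 to 8.71 points. Some of these settings changed only the thresholds, the test or the chromosomes included. The difference of a gene could not move in those, so they add nothing to the count. Directions turned at Alb with at least 10 reads (-2.86 points), at Fgb (6.68) and Fgg (6.29) with at least 20 reads, at Fga (-1.76) and Apoa1 (-0.341) with merged strands, at Fgg (0.397) and Ttr (10.6) with flanks of 2000 bp, at Ttr (1.02) and Apoa1 (-0.826) with 10000 bp, at Ttr with read weighting (8.21), halved reads (0.837) and the minus strand (1.71), and on the plus strand at Afp (3.32), Fga (-0.896), Fgg (5.20) and Apoa1 (-1.42). The strand settings were chosen after seeing the data, and the cause of these shifts was not tested. No paired analysis was possible because each group has 1 library, and no library could be left out.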

Other observations

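The stretches between the clustered genes were averaged as well, chosen after seeing the data, and part of their cytosines are those of the windows above. Between Alb and Afp, 10 cytosines over 14111 bp (chromosome 5, 90476603 to 90490713) stood at 19.8% (control) and 21.0% (fasted), and none exceeded 26.7% and 37.5% respectively. Of them, 8 are those of the flank of Afp. Between Afp and Afm, the gene of afamin, a vitamin E-binding relative of albumin, 9 cytosines stood at 51.9% and 54.5%, with values from 0 to 93.3% and from 0 to 100%. Inside Afm 44 cytosines stood at 61.8% and 69.5%, with 25 higher and 16 lower in the fasted library, and its window was not called (adjusted p = 0.199, Fisher's exact test). Of these 3 stretches that between Alb and Afp was the lowest.

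Between Fgg and Fga 11 cytosines stood at 37.9% and 43.3%. Of them, 7 are those beyond Fgg, at 56.0% and 62.8%, and 4 those before Fga, at 6.26% and 9.17%. Between Fga and Fgb 8 cytosines, the same as those beyond Fga, stood at 22.7% and 29.3%, of which 6 were higher and 2 lower. Inside Plrg1, the gene beside Fgb, which encodes a splicing factor, 6 cytosines stood at 79.9% and 68.5%.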
